A study of Mus musculus with 37 samples.

Results

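The genes described are 8 small leucine-rich proteoglycan (SLRP) genes, Dcn, Lum, Bgn, Fmod, Ogn, Aspn, Omd and Prelp, chosen by symbol and found once each among the 51123 gene IDs of a table of TPM values (transcript abundance scaled to transcript length and library). Their Ensembl IDs are ENSMUSG00000019929 (Dcn), ENSMUSG00000036446 (Lum), ENSMUSG00000031375 (Bgn), ENSMUSG00000041559 (Fmod), ENSMUSG00000021390 (Ogn), ENSMUSG00000021388 (Aspn), ENSMUSG00000048368 (Omd) and ENSMUSG00000041577 (Prelp). All 8 passed the filter on low values in both sets of libraries. The study followed the path from bone marrow (BM) to osteosarcoma in mice, using RNA from cultured cells in 37 libraries that form 2 sets, fitted separately. Control BM came from mice without deletion, wild type by the labels and Cre-negative by the design text. In SKO mice Osx1-Cre deleted Trp53, and in DKO mice it deleted both Trp53 and Wwox, with the Rosa26-LSL-tdTomato reporter marking cells in which Cre had acted. The Osx1 promoter drives Cre in mesenchymal cells committed to bone. Groups named yBM are BM cells of young mice without tumors, those named BMT are BM cells of tumor-bearing mice, and tumor groups are cells of the primary osteosarcoma. Set 1 holds control BM (n = 4), DKO yBM (n = 6, of which 3 at 1.5 months and 3 at 4 months), DKO BMT (n = 3) and DKO tumor (n = 3). Set 2 holds control BM and the SKO and DKO forms of yBM, BMT and tumor, each with n = 3. The labels used here give no age for the other groups.

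SLRPs are secreted proteins of the extracellular matrix whose core is a chain of leucine-rich repeats, and most carry sulfated glycosaminoglycan chains. They bind collagen fibrils and set how thick and how evenly spaced the fibrils become, and several hold growth factors such as TGF-beta in the matrix. In bone they are made by osteoblasts and stromal cells and help the matrix to mineralise. Biglycan (Bgn) and decorin (Dcn) carry chondroitin or dermatan sulfate, and asporin (Aspn), their close relative, lacks such chains and binds collagen and calcium. Lumican (Lum), fibromodulin (Fmod), osteomodulin (Omd, also called osteoadherin) and PRELP belong to the keratan sulfate class, of which fibromodulin is typical of tendon and cartilage and osteomodulin of mature osteoblasts. Osteoglycin (Ogn, also called mimecan) belongs to a further class and was first known from bone.

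Some libraries stood apart from their labels. Wwox was above 50% of the control mean in 7 of 12 DKO libraries of set 1 (yBM 2 to 6, BMT 1 and tumor 1) and in all 3 libraries labelled DKO tumor of set 2. It was below 50% in 2 of 9 SKO libraries, SKO BMT 2 and 3. Control BM 3 of set 1, without deletion by its label, was also below, with Wwox at 0.922 TPM or 32% of the control mean. A level below this cut thus does not by itself mark a deletion. Trp53 was above 50% of control in the set 1 libraries labelled DKO BMT 2 and 3, and in none of the 18 knockout libraries of set 2. The mean log2(TPM + 1) of 18 macrophage and other leukocyte markers was 8.31 to 8.66 in the set 2 control libraries. It was 0.321 to 0.965 in the set 2 knockout libraries apart from SKO BMT 2 (5.41) and DKO BMT 2 (4.46). In set 1 it was 5.85 to 8.10 in control BM, 4.39 to 8.02 in DKO yBM, 7.13 to 7.43 in DKO BMT and 0.532 to 5.94 in DKO tumor. Of 12 mesenchymal stromal markers, 10 to 12 reached 1 TPM in every library of each group, but their level differed. In set 1 their mean log2(TPM + 1) was 4.94 to 6.04 in control BM and 4.67 to 4.71 in DKO BMT. It was 4.63 to 5.65 in DKO yBM and 5.42 to 6.01 in DKO tumor. In set 2 it was 4.64 to 5.56 in control BM and ran from 3.73 in DKO BMT 3 to 6.29 in SKO tumor 3. Between 5.32% and 32.5% of all TPM was mitochondrial. In such bulk libraries fewer cells of a type and less RNA per cell cannot be told apart.

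Bgn was by far the most abundant SLRP transcript. TPM is scaled to transcript length, so levels can be set side by side between genes. Bgn was the highest of the 8 in 36 of 37 libraries, between 516 and 4537 TPM in set 1 and between 285 and 3565 TPM in set 2. The exception was SKO tumor 2, where Ogn stood at 1834 TPM, Aspn at 1176 TPM, Omd at 1079 TPM and Bgn at 353 TPM. Bgn made up a median of 78.1% of the summed SLRP TPM in set 1 control BM and 92.9% in set 2 DKO tumor, but 51.2% in SKO yBM and 7.91% in SKO tumor 2. The next levels in set 1, by median over 16 libraries, were Prelp at 126 TPM, Ogn at 125 TPM, Fmod at 116 TPM, Omd at 34.5 TPM, Aspn at 29.2 TPM and Dcn at 17.5 TPM. Lum, by contrast, was nearly silent. It reached 1 TPM in 4 of 16 libraries of set 1 and 3 of 21 of set 2, with its highest values in SKO BMT 2 (11.2 TPM), DKO yBM 2 of set 1 (10.1 TPM) and DKO BMT 1 of set 1 (6.21 TPM).

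**Figure D1:**
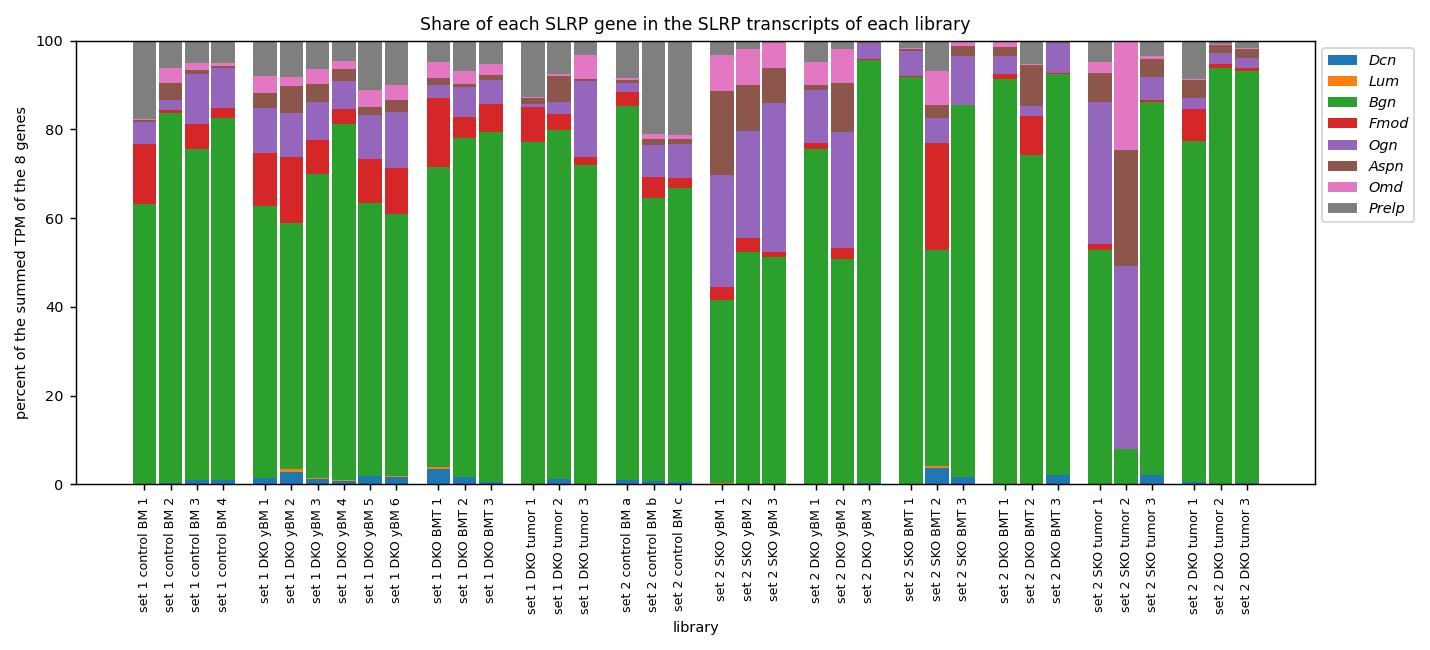
Percent of the summed TPM of the 8 SLRP genes (y axis) taken by each gene in each of the 37 libraries (x axis). Bgn takes the largest part in 36 libraries, and Ogn, Aspn and Omd take most of SKO tumor 2.

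The SLRP genes varied widely between libraries of the same group. In set 1 the SD of log2(TPM + 1) within groups was 0.693 for Ogn and 0.711 for Bgn and reached 1.56 for Aspn, where the median of 14404 tested genes was 0.469. In set 2 it ran from 0.882 for Lum and 1.03 for Bgn to 2.61 for Fmod and 2.63 for Prelp, against a median of 0.542 over 14458 genes. For Fmod and Prelp in set 2, 99.7% of tested genes varied less. Fmod, for instance, was at 4.14, 545 and 0.178 TPM in SKO BMT 1, 2 and 3. The 8 genes were tested in 20 comparisons, 160 tests in all, with limma on log2(TPM + 1) and Benjamini-Hochberg adjustment over all tested genes. A single test passed an adjusted p of 0.05, where between 0% and 19.5% of all tested genes did, depending on the comparison. Another count, of tests with an unadjusted p below 0.05 by limma, was 21. The share of all genes below that limit is not given here, so the 21 are no measure of an excess.

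**Figure D2:**
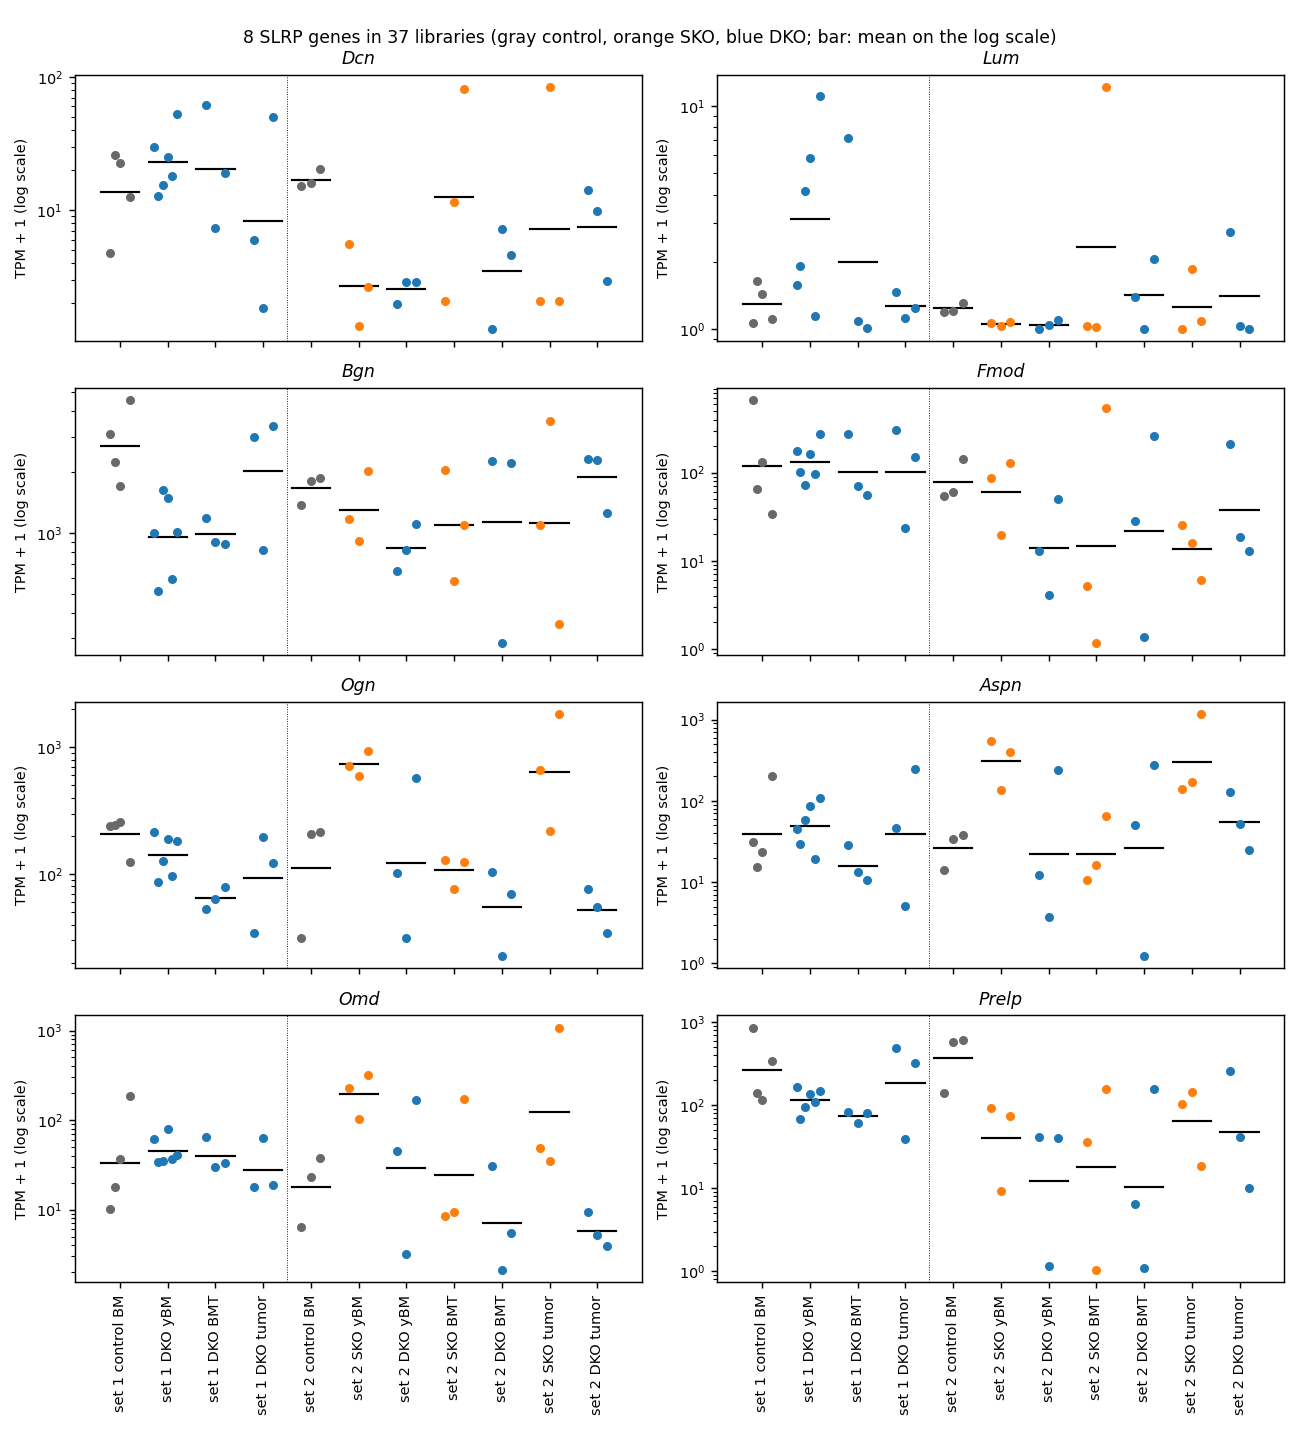
TPM + 1 (y axis, log scale) of each SLRP gene in the 37 libraries by group (x axis), with points for libraries, bars for the mean on the log scale, and gray, orange and blue for control, SKO and DKO. Bgn lies lower in set 1 DKO yBM than in control BM, and Ogn, Aspn and Omd lie high in set 2 SKO yBM.

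The test that passed was Bgn in the libraries labelled DKO yBM of set 1, BM cells taken before any tumor was found, of which 5 of 6 (yBM 2 to 6) had Wwox above 50% of control. Bgn was at 3093, 4537, 1713 and 2233 TPM in control BM 1 to 4. In DKO yBM it ranged from 516 to 1638 TPM with a median of 1004 TPM. Every DKO yBM library was thus below every control library. Bgn fell by 1.50 on the log2 scale (SE 0.42, 95% interval -2.41 to -0.60), with an adjusted p of 0.0447 by limma. This is 1 called gene of 8, where 7.81% of 14404 genes were called in either direction and 6.14% lower, and 1 gene of 8 below all controls, where 11.1% of genes were. The call was lost without any 1 of DKO yBM 1, 2, 3, 5 and 6 or control BM 1, 2 and 4, with adjusted p between 0.0514 and 0.123, and the log2 change stayed between -1.63 and -1.26 in these fits. With the replicate number as a block the log2 change was -1.35 (adjusted p = 0.209 by limma). A further fit left out all 7 DKO libraries of set 1 with high Wwox, among them tumor 1 and BMT 1. This leaves DKO yBM 1 alone in its group, and the log2 change was -2.39, the lone library being assumed to vary like the other groups.

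The other 7 genes overlapped between DKO yBM and control BM in set 1. Prelp, which anchors basement membranes to collagen, ranged from 66.7 to 167 TPM in DKO yBM and from 116 to 861 TPM in control BM (adjusted p = 0.244). Lum was at 0.139 to 10.1 TPM against 0.0656 to 0.633 TPM (adjusted p = 0.199). Dcn was at 11.8 to 51.3 TPM against 3.79 to 25.1 TPM, and Fmod, Ogn, Aspn and Omd had adjusted p between 0.401 and 0.906. The median log2 difference of the 8 genes was 0.27, and that of all tested genes was -0.22. Age made no detectable difference. DKO yBM at 4 months averaged 1076 TPM of Bgn and those at 1.5 months 1006 TPM (log2 difference 0.10, SE 0.55), and all 8 genes overlapped with an adjusted p of 1, where 0.00694% of genes were called and 5.95% did not overlap. With 3 libraries a side and this spread, only large differences could have been seen.

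DKO BMT cells of set 1 showed the low Bgn level again, with Ogn and Prelp beside it, in a comparison that shares the control libraries. In DKO BMT 1, 2 and 3 the Bgn level was 1189, 882 and 902 TPM, all below control (log2 difference -1.46, SE 0.50, adjusted p = 0.117). Ogn was at 51.9, 77.8 and 62.7 TPM, below its control values of 237, 125, 257 and 242 TPM (log2 difference -1.69, SE 0.49, adjusted p = 0.0774). Prelp was at 83.0, 79.5 and 59.3 TPM, below its lowest control value of 116 TPM (log2 difference -1.82, SE 0.75, adjusted p = 0.187). None of the 3 passed the test. They are 3 of 8 genes below all controls, where 9.64% of all genes were so and 2.35% were called. Dcn, Lum, Fmod, Aspn and Omd overlapped. The mesenchymal stromal level of DKO BMT (4.67 to 4.71) was also below that of every control library (4.94 to 6.04). Its part in the low values was not tested. With the leukocyte level as a covariate Ogn was called (log2 difference -1.61, adjusted p = 0.0475). The libraries labelled DKO BMT 2 and 3 keep Trp53 above 50% of control and BMT 1 keeps Wwox. Without the DKO libraries of high Wwox the log2 differences were -1.60 for Bgn, -1.55 for Ogn and -1.91 for Prelp. Without those of high Trp53, which leaves BMT 1 alone in its group and assumed to vary like the others, they were -1.19, -1.98 and -1.64 in turn. No gene of the 8 was called in either fit.

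In DKO tumor cells of set 1 none of the 8 genes separated from control BM, where 3.39% of genes were called and 15.5% did not overlap. Bgn was at 2999, 3380 and 821 TPM in tumor 1, 2 and 3, so that 2 libraries lay within the control range and 1 below it. Ogn was at 33.3, 121 and 195 TPM (log2 difference -1.15, SE 0.49, adjusted p = 0.176). DKO tumor 3 had the lowest level of Dcn (0.863 TPM), Fmod (22.6 TPM), Aspn (4.14 TPM) and Prelp (38.0 TPM) of all 16 libraries, and its Ogn level was the highest of the 3 tumors. Against DKO yBM, Bgn in the tumors had a log2 difference of 1.09 (SE 0.46, adjusted p = 0.287), where 0.132% of genes were called and 6.66% did not overlap. Against DKO BMT all 8 overlapped with adjusted p of 0.451 or more, where 0.257% of genes were called and 13.1% did not overlap.

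**Figure D3:**
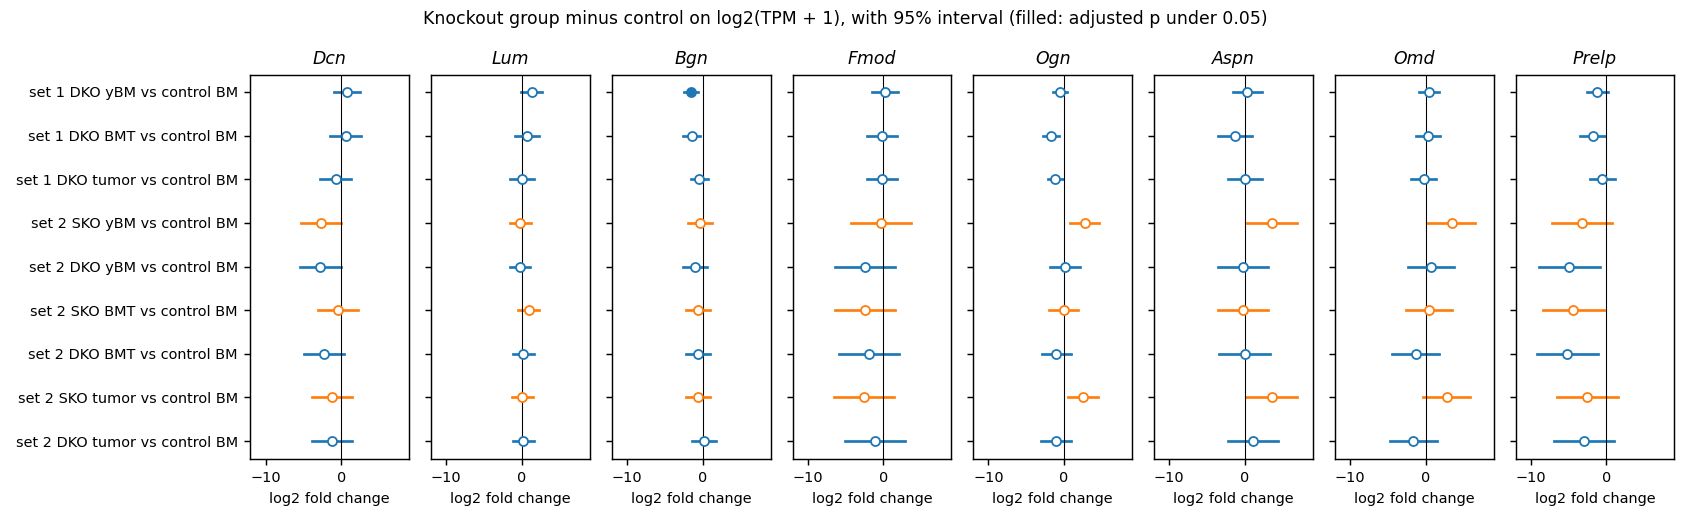
log2 fold change of each SLRP gene on log2(TPM + 1) with its 95% interval (x axis) for each knockout group against the control BM of its set (y axis), blue for DKO and orange for SKO, filled where the adjusted p was under 0.05. Bgn in set 1 DKO yBM is the filled point. Among the open points, the intervals of Ogn and Aspn in SKO yBM and SKO tumor and of Omd in SKO yBM lie above 0. Several others lie below 0, such as those of Prelp in set 2 DKO yBM, SKO BMT and DKO BMT.

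Set 2 held the strongest contrasts in level, in opposite directions for different members. In SKO yBM, Ogn was at 715, 936 and 598 TPM, where control BM a, b and c had 30.4, 212 and 206 TPM (log2 difference 2.73, SE 0.93, adjusted p = 0.06). Aspn was at 540, 400 and 137 TPM against 12.9, 36.8 and 33.3 TPM (log2 difference 3.56, SE 1.59, adjusted p = 0.145). Omd was at 229, 317 and 103 TPM against 5.36, 36.6 and 22.4 TPM (log2 difference 3.47, SE 1.47, adjusted p = 0.127). All SKO yBM libraries were above all control libraries for these 3 genes, and none of them passed the test over all genes. Dcn went the other way, at 4.54, 1.64 and 0.344 TPM against 14.1, 19.3 and 14.9 TPM (log2 difference -2.65, SE 1.26, adjusted p = 0.17). Prelp was at 91.3, 73.8 and 8.31 TPM, below the control values of 139, 617 and 580 TPM (log2 difference -3.20, SE 1.91, adjusted p = 0.276). Lum was below 0.1 TPM in all 3 SKO libraries and at 0.195 to 0.308 TPM in control BM, near the floor in both. Bgn and Fmod overlapped. Of 8 genes, 3 lay above all controls, where 30.9% of all genes did, and 3 below, with Lum counted, where 17.2% did. Of all genes, 13.5% were called. When SKO yBM and control BM alone entered the fit, Dcn (limma adjusted p = 0.0174), Ogn (0.0479), Aspn (0.0118) and Omd (0.0226) were called. That fit leaves out the spread of the other 5 groups. The 13.5% belongs to the fit of all groups, and the share of all genes called in the smaller fit is not given here. These calls are thus no sign that SLRP genes stand out.

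In DKO yBM of set 2 the 3 genes that were high in SKO yBM spread over a wide range. Ogn was at 101, 569 and 30.1 TPM, Aspn at 11.1, 241 and 2.72 TPM, and Omd at 44.5, 166 and 2.20 TPM in DKO yBM 1, 2 and 3. DKO yBM 2 was thus above the controls for all 3 genes, and DKO yBM 3 was below them for each. Dcn was at 0.987, 1.89 and 1.88 TPM (log2 difference to control -2.73, SE 1.26, adjusted p = 0.141). It was called when DKO yBM and control BM alone entered the fit (limma adjusted p = 0.00151), for which the share of all genes called is not given here. Prelp was at 40.4, 38.8 and 0.150 TPM (log2 difference -4.90, SE 1.91, adjusted p = 0.0808). Fmod was at 11.9, 49.7 and 3.09 TPM (log2 difference -2.48, SE 1.89, adjusted p = 0.389), and Bgn at 647, 1102 and 820 TPM (log2 difference -0.996, SE 0.76, adjusted p = 0.39). Lum was near the floor in both groups, at most 0.0955 TPM in DKO yBM and 0.195 to 0.308 TPM in control BM. With Lum counted, 5 of 8 genes lay below all controls, where 20.2% of all genes did and 19.5% were called.

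Leukocyte transcripts moved with these comparisons. Of 18 leukocyte markers, 17 or 18 were called lower in each set 2 knockout group against control BM. Across the 21 libraries of set 2, the mean leukocyte level had a Pearson's r of 0.60 with Prelp, 0.50 with Fmod and 0.49 with Dcn, and of -0.14 with Ogn, -0.11 with Aspn and -0.07 with Omd. These correlations rest on libraries of 7 groups and share one scaling per library, so they are given as a description. Over the 16 libraries of set 1 the r was -0.09 with Prelp, 0.20 with Fmod and 0.28 with Dcn. It was -0.12 with Ogn, -0.20 with Aspn and -0.05 with Omd. In set 1 the leukocyte level of DKO yBM overlapped that of control BM, and none of the 18 markers was called there. With the leukocyte level as a covariate the log2 differences in SKO yBM turned to 1.39 for Dcn and 6.74 for Prelp, neither called. Leukocyte RNA and genotype cannot be told apart in set 2, since all 3 control libraries are high and 16 of 18 knockout libraries are low.

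Single libraries differed widely in BMT cells of set 2. In SKO BMT all 8 genes overlapped control BM, where 34.6% of genes did not and 13.4% were called. SKO BMT 2 had 80.8 TPM of Dcn, 545 TPM of Fmod and 172 TPM of Omd, while SKO BMT 3 had 10.5, 0.178 and 8.46 TPM of the same genes. The mesenchymal stromal level was 3.96 in SKO BMT 3, where SKO BMT 1 and 2 had 5.85 and 5.35. Prelp was at 34.95, 155 and 0.0436 TPM in SKO BMT 1, 2 and 3 (log2 difference to control -4.36, SE 1.91, adjusted p = 0.138). The library labelled SKO BMT 2, which was high in all of these and has Wwox at 2.84% of control, also held leukocyte RNA (5.41), and its mean level of 12 osteoblast markers was the highest of set 2 (7.67 as log2(TPM + 1)). In DKO BMT, Dcn was at 0.287, 3.64 and 6.25 TPM, below all controls (log2 difference -2.27, SE 1.26, adjusted p = 0.264). This was 1 gene of 8, where 13.5% of genes lay below all controls and 12.0% were called. Prelp was at 5.46, 157 and 0.110 TPM (log2 difference -5.15, SE 1.91, adjusted p = 0.0878), with DKO BMT 2 above the lowest control. Without DKO BMT 2, the DKO library with leukocyte RNA, the log2 difference was -7.11 and Prelp was called (adjusted p = 0.0187). Between the libraries labelled DKO BMT and SKO BMT, of which SKO BMT 2 and 3 have Wwox below 50% of control, all 8 genes overlapped with an adjusted p of 1, where 0% of genes were called and 3.70% did not overlap.

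In SKO tumor cells, 1 library held the highest Ogn, Aspn and Omd levels of the 37. This was SKO tumor 2, in which 26.8% of TPM was mitochondrial, 11001 genes reached 1 TPM, the fewest of any library, and the mesenchymal stromal markers averaged 3.82 as log2(TPM + 1), where SKO tumor 1 and 3 had 5.09 and 6.29. Ogn was at 664, 1834 and 218 TPM in SKO tumor 1, 2 and 3, all above control (log2 difference 2.53, SE 0.93, adjusted p = 0.0918). Aspn was at 139, 1176 and 170 TPM (log2 difference 3.53, SE 1.59, adjusted p = 0.18). Omd was at 47.2, 1079 and 34.2 TPM, and SKO tumor 3 lay within the control range (adjusted p = 0.267). SKO tumor 1 and 3 had less Omd than every SKO yBM library. Without SKO tumor 2 the log2 differences were 1.77 for Ogn, 2.56 for Aspn and 1.21 for Omd, and none was called. Fmod was at 24.3, 5.01 and 15.0 TPM, below all controls (log2 difference -2.53, SE 1.89, adjusted p = 0.464). Of 8 genes, 2 lay above all controls, where 7.46% of genes did, and 1 below, where 15.5% did, and 11.6% of genes were called. Without SKO tumor 3 the Ogn difference was 3.31 and was called (adjusted p = 0.031). SKO tumor 3 had the highest Dcn of the series (83.4 TPM), where SKO tumor 1 and 2 had 1.09 and 1.10 TPM. Against SKO BMT, both Ogn (log2 difference 2.59, SE 0.93) and Aspn (3.76, SE 1.59) were higher without overlap, each with an adjusted p of 0.426, where 0.0830% of genes were called and 3.51% were higher without overlap. Against SKO yBM the 8 genes overlapped, where 0% of genes were called and 10.6% did not overlap.

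The libraries labelled DKO tumor in set 2, which keep Wwox, had none of these high values. Ogn was at 74.7, 33.4 and 53.7 TPM, Omd at 8.43, 2.95 and 4.19 TPM, and Aspn at 126, 23.96 and 50.5 TPM in DKO tumor 1, 2 and 3. Each of these lay below every SKO tumor library. The log2 difference between the libraries labelled DKO tumor and SKO tumor was -3.63 for Ogn (SE 0.93, unadjusted p = 0.00106, adjusted p = 0.585 by limma). It was -4.40 for Omd (SE 1.47, adjusted p = 0.585) and -2.47 for Aspn (SE 1.59, adjusted p = 0.633). No gene of the whole table was called in this comparison, so 0% were called, and 3.20% of genes were lower without overlap where 3 of 8 SLRP genes were. The Ogn difference ranked 17 among 14458 genes by p. In yBM, Ogn was also lower in DKO than in SKO without overlap (log2 difference -2.60, SE 0.93, adjusted p = 1), where 0.0207% of genes were called and 11.2% were lower without overlap. For Aspn the difference in yBM was -3.81 (SE 1.59, adjusted p = 1), with DKO yBM 2 within the SKO range. The comparison of both differences, tumor against yBM in DKO minus that in SKO, gave adjusted p of 0.869 or more for all 8 genes, where 0.0138% of genes were called.

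Bgn and Dcn in the labelled DKO tumors lay above DKO yBM of set 2 without overlap, for Dcn narrowly, and neither passed the test. Bgn was at 2320, 1255 and 2286 TPM in the tumors and at most 1102 TPM in DKO yBM (log2 difference 1.17, SE 0.76, adjusted p = 1). Dcn was at 13.2, 1.94 and 8.92 TPM and at most 1.89 TPM in DKO yBM (log2 difference 1.55, SE 1.26, adjusted p = 1). These 2 of 8 genes were higher without overlap, where 7.73% of genes were and 0.104% were called. Against control BM, Dcn was below all controls (log2 difference -1.18, SE 1.26, adjusted p = 0.575), as 1 gene of 8 where 17.9% of genes were so and 17.2% were called. Against DKO BMT all 8 overlapped, where 0.0830% of genes were called and 6.93% did not overlap.

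Some pairs of the 8 genes moved together from library to library. Over 37 libraries, with the mean of each set removed from log2(TPM + 1), the highest of the 28 pairwise correlations were Ogn with Omd (Pearson's r 0.80) and Fmod with Prelp (0.77). Ogn with Aspn and Aspn with Omd each had an r of 0.65, Bgn with Prelp 0.61 and Dcn with Lum 0.57. Instead, the mean of each group was removed, which leaves the spread within groups. Fmod with Prelp then had an r of 0.85, Ogn with Omd 0.67, Aspn with Omd 0.60 and Ogn with Aspn 0.50. On that scale Bgn with Prelp, Aspn with Prelp and Lum with Fmod each had an r of 0.62, and Fmod with Aspn 0.61. Aspn was thus no closer to Ogn and Omd than to Prelp and Fmod. Dcn with Ogn had an r of -0.17 and -0.19 in turn, and Bgn with Ogn had an r of 0.02 both ways. Bgn with Aspn had an r of 0.36 with set means removed and 0.51 with group means removed. The points share the scaling of each library and its mixture of cell types.

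**Figure D4:**
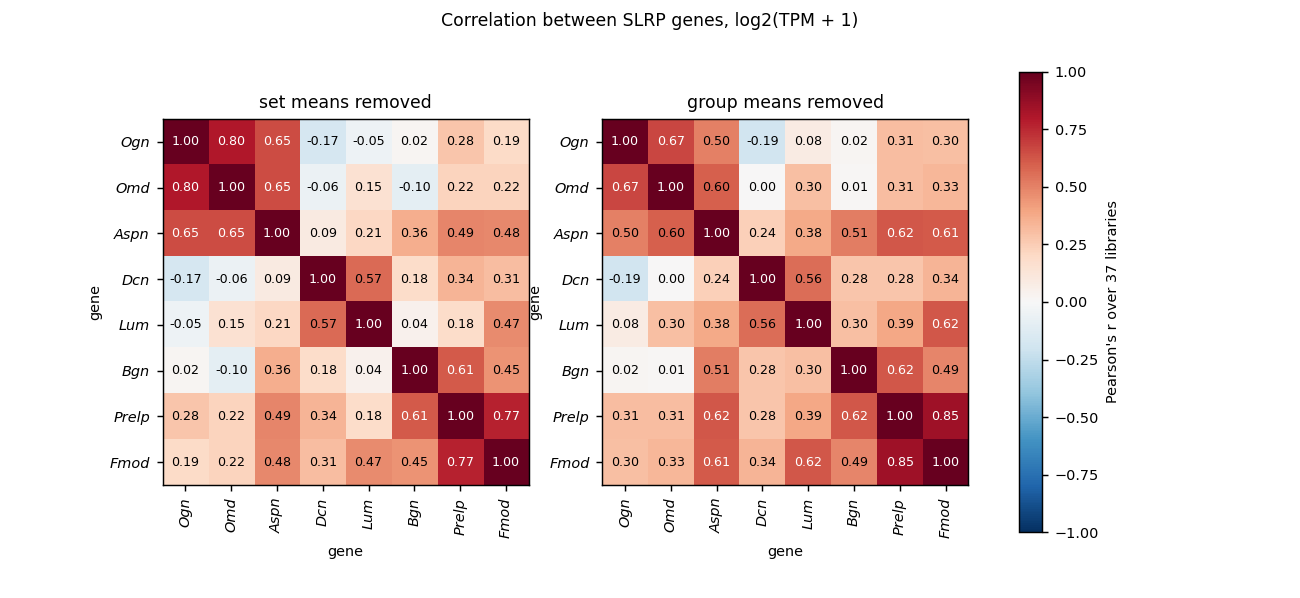
Pearson's r of log2(TPM + 1) between each 2 of the 8 SLRP genes (both axes) over 37 libraries, with set means removed (left) and group means removed (right). Ogn, Omd and Aspn form a block at 0.65 to 0.80 on the left, and Fmod and Prelp reach 0.85 on the right. Aspn on the right is at 0.62 with Prelp and 0.61 with Fmod.

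**Figure D5:**
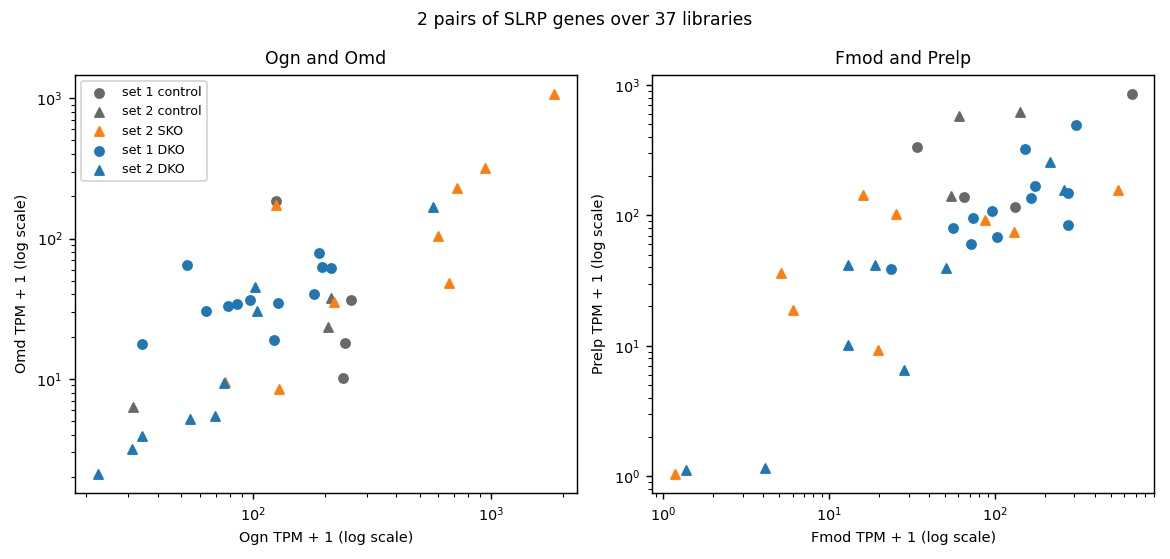
TPM + 1 of Omd against Ogn (left) and Prelp against Fmod (right), log scales, for 37 libraries with gray, orange and blue for control, SKO and DKO and circles and triangles for sets 1 and 2. The SKO yBM libraries, SKO tumor 2 and DKO yBM 2 of set 2 reach the upper right of the Ogn and Omd plot. For Prelp, 3 set 2 libraries lie near 0.

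The highest pairs with set means removed follow in part the order of the genes on the chromosomes. Aspn, Omd and Ogn are direct neighbours on chromosome 13, after Ecm2 and before Nol8 among protein-coding genes. They are the block seen with set means removed, which was less distinct with group means removed. Prelp and Fmod are neighbours on chromosome 1, between Optc and Btg2, and Dcn and Lum are neighbours on chromosome 10. Bgn lies on the X chromosome between Haus7 and Atp2b3. The order is that of RefSeq on GRCm38.p6. The 250 bases before the annotated start of 6 of the 8 genes were read from RefSeq on the same build. They are shown for the chromosome 13 trio, whose levels moved together, and for Bgn, the most abundant member. Capitals mark matches to TATAAA on the coding strand, the RUNX motif TGTGGT (or its reverse complement) and the GC box GGGCGG (or its reverse complement). The windows are chr13:49544193-49544442 (Aspn), chr13:49582212-49582461 (Omd), chr13:49607765-49608014 (Ogn) and chrX:73483351-73483600 (Bgn), all on the plus strand.
Aspn: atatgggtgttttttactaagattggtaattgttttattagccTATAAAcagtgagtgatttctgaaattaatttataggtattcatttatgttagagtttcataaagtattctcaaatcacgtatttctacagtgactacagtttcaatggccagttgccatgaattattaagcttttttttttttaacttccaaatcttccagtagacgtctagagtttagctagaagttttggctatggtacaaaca
Omd: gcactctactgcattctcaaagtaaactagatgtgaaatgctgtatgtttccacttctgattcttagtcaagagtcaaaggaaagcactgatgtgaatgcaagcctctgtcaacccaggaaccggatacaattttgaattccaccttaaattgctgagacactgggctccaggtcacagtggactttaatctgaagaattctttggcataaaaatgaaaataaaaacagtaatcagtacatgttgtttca
Ogn: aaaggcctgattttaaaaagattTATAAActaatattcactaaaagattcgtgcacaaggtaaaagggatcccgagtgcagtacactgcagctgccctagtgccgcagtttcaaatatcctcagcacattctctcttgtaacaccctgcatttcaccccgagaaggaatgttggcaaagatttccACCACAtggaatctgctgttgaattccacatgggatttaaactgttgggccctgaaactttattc
Bgn: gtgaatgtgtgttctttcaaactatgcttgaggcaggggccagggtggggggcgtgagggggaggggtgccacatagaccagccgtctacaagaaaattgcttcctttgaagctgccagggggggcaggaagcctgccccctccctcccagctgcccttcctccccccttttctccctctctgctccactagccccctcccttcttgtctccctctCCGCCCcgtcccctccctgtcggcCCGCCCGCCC

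The trio shared AT-rich starts. GC made up 30% of the Aspn window, 38.4% of Omd and 42% of Ogn, where the median of 32851 promoter windows of this length was 52.4%, and 64.4% of the Bgn window. Bgn had 7 CpG dinucleotides and the trio 1 to 4, against a median of 6. TATAAA stood 207 bases before the start of Aspn and 227 bases before that of Ogn, and 7.59% of all windows hold it. The RUNX motif, bound by the bone factor RUNX2, was found on the reverse strand 65 bases before the start of Ogn, and 14% of windows hold it on either strand. The GC box was found 3 times in the Bgn window, 34, 10 and 6 bases before the start on the reverse strand, the last pair overlapping, and 32.7% of windows hold it. CACGTG, the E-box bound by Myc, was in none of the 6 windows and in 6.02% of all windows. TGACTCA (AP-1) and CAGACA (SMAD), each searched on both strands, were also in none of the 6, and in 4.46% and 17.1% of all windows. A match to such letters is a description of the window, not a bound site.

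The genes most like each member were picked over all genes. Those most like Bgn over 37 libraries were Il17d (r 0.91), Plekhg2 (0.90) and Dact3 (0.90), and those most like Prelp were Gas6 (0.88) and Sod3 (0.86). Ogn was most like Emc2 (0.88) and Slc26a7 (0.82), and Slc26a7 was also first for Omd (0.80). For Fmod they were Nkd2 (0.81), Atp2b4 (0.77) and Srpx (0.77), and for Aspn Fam114a1 (0.74), Cped1 (0.72) and Zfp945 (0.71). Lum was most like Lgi2 (0.79), Bglap3 (0.73) and Nell2 (0.72), and Dcn like Mpv17 (0.71), Add3 (0.71) and Qpct (0.69). Chosen as the highest of all genes, they carry no test. Of the cell type lists, the mean of 12 mesenchymal stromal markers had an r of 0.84 with Bgn in set 1 (16 libraries) and 0.92 in set 2 (21 libraries). The tendon and ligament fibroblast list had an r with Fmod of 0.52 in set 1 and 0.82 in set 2, and with Prelp of 0.81 and 0.59. The chondrocyte list had an r with Fmod of 0.58 in set 1 and 0.80 in set 2. The adipocyte list had an r with Prelp of 0.80 in set 2 but 0.04 in set 1. For the smooth muscle and contractile list the r with Prelp was 0.76 in set 1 and 0.75 in set 2. The osteoblast list had an r of 0.72 with Omd in set 2 and of 0.24 in set 1, and with Lum of 0.51 and 0.67. Prelp had an r of 0.73 in set 1 and 0.71 in set 2 with the chondrocyte list. With the mesenchymal stromal list its r was 0.68 and 0.65. Bgn had an r of 0.79 and 0.60 with the tendon and ligament fibroblast list. These values are a selection from all pairs of gene and list, and the chondrocyte and tendon lists share Comp.

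Among 10 further SLRP genes, 5 in set 1 and 6 in set 2 passed the filter. Podn, which encodes podocan, and Ecm2, a neighbour of Aspn, fell in set 1 DKO yBM and DKO BMT, where 7.81% and 2.35% of all genes were called. In set 1 Podn averaged 11.2 ± 11.7 TPM in control BM (SD, n = 4), 0.527 ± 0.351 TPM in DKO yBM (n = 6, log2 difference -2.62, limma adjusted p = 0.02) and 0.364 ± 0.0549 TPM in DKO BMT (n = 3, adjusted p = 0.0459). Ecm2 averaged 3.98 ± 1.28 TPM in control BM, 1.79 ± 0.508 TPM in DKO yBM (limma adjusted p = 0.0476) and 1.01 ± 0.431 TPM in DKO BMT (adjusted p = 0.0338). In set 2 Podn fell in DKO yBM (0.317 against 5.08 TPM, adjusted p = 0.0311) and SKO BMT (0.367 TPM, adjusted p = 0.0435). Podnl1 rose in DKO yBM of set 2, from 8.88 to 45.2 TPM (log2 difference 2.67, adjusted p = 0.0268), and Tsku fell in SKO tumor, from 25.96 to 6.85 TPM (adjusted p = 0.0216). Of all genes, 19.5% were called in DKO yBM of set 2, 13.4% in SKO BMT and 11.6% in SKO tumor, each against control. Podn had an r of 0.77 with Bgn over 37 libraries, and Ecm2 an r of 0.77 with Prelp and 0.66 with Aspn.

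The enzymes that build the glycosaminoglycan chains were represented by 25 genes, of which 24 were tested in set 1 and 23 in set 2. In none of the 9 comparisons with control BM was any of them called higher. Uncalled differences went both ways, and 12 of 23 were positive in SKO yBM of set 2. In DKO yBM of set 1, 3 of 24 were called lower, where 6.14% of all genes were. They were Chsy1, a chondroitin synthase, from 30.8 to 10.6 TPM (limma adjusted p = 0.0298), Dse, which turns chondroitin into dermatan sulfate, from 51.0 to 20.2 TPM (adjusted p = 0.0173), and Chst1, a keratan sulfate sulfotransferase, from 5.15 to 1.76 TPM (adjusted p = 0.0253). Their median log2 difference was -0.65 over the list and -0.22 over all genes. In DKO BMT Csgalnact1, which starts chondroitin chains, fell, and in DKO tumor of set 1 Dse fell. Of all genes, 2.35% and 3.39% were called there in turn. In set 2, 1 to 4 of 23 were called lower in each comparison with control, where 11.6% to 19.5% of all genes were called in either direction. B3gnt7 was called lower in all 6 of these, from 1.45 TPM in control BM to under 0.1 TPM, and Xylt2, which adds the first sugar of the chain, in 5, from 56.7 TPM to 11.53 TPM in DKO tumor (limma adjusted p = 0.0101). Leukocyte markers fell in the same 6 comparisons.

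The partners that SLRPs bind were listed as 9 collagen genes and 3 TGF-beta genes, and all 12 were tested. None of the collagens was called in any comparison with control BM. Col5a2, which helps to start collagen fibrils, averaged 205 TPM in set 2 control BM and 663 TPM in SKO yBM (adjusted p = 0.126). Tgfb3 averaged 128 TPM in set 1 control BM and 20.6 TPM in DKO BMT (adjusted p = 0.0694), and Tgfb2 averaged 14.5 TPM in set 2 control BM and 50.6 TPM in SKO yBM (adjusted p = 0.0732). Tgfb1 was not called in set 1. In set 2 it averaged 128 ± 19.9 TPM in control BM (SD, n = 3) and fell in SKO yBM to 23.6 ± 10.9 TPM (limma adjusted p = 0.0115), DKO yBM to 30.2 ± 0.287 TPM (0.0287), SKO tumor to 18.1 ± 6.38 TPM (0.00498) and DKO tumor to 15.6 ± 10.5 TPM (0.00168). Between 11.6% and 19.5% of all genes were called in these comparisons. Leukocytes also express Tgfb1, and their markers fell in these comparisons too. The part of this in the Tgfb1 values was not tested.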

How the data were processed

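RNA of cultured BM and tumor cells was taken after 3 passages and sequenced as stranded poly-A libraries. Per the methods and the submitters' processing notes, the authors trimmed reads (Trim Galore, 0.6.1 in the notes, which name the build mm39), ran FastQC for quality, used salmon for quantification and deposited a TPM value per gene. DESeq2 was the authors' own tool and was not used here. Since TPM does not retain how many reads a library had, depth is unknown and no interval for counting error can be given. Libraries rich in a few transcripts have lower TPM for all others.

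Here log2(TPM + 1) was tested with limma 3.58.1 (R 4.3.3, trended prior), all groups of a set in 1 fit. A gene entered if it reached 1 TPM in 3 or more libraries of its set, which left 14404 genes in set 1 and 14458 in set 2. Calls were made at a Benjamini-Hochberg adjusted p under 0.05. The test was checked on simulated data. The scale shrinks the change of weakly expressed genes. Symbols, gene order and promoter windows come from RefSeq-based tables of GRCm38.p6, a build other than that of the files, and 48246 of 51123 IDs matched a symbol. The 3 control columns of set 2 were matched to their group only and are called a, b and c. The methods count as many control and tumor-free mice as set 1 has control and yBM libraries (4 and 6), and a legend calls its BMT cells the pairs of its tumors, but no label names the animal behind a library. The p-values reflect spread between libraries, which may be technical where separate animals are not given. The members and lists were chosen with earlier results of these data known. Named like genes are the 3 of highest Pearson's r over 37 libraries after set means were removed, leaving out 1 unnamed gene model and 1 gene that is not reported here. From each list of partner genes the 4 of smallest p over the comparisons with control are named. Chsy1 and Xylt2 are not among these 4, and were chosen once their values were known.

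Alternatives were other pseudocounts (0.1 and 5), no filter, median-ratio and quantile scaling, TPM rescaled without mitochondrial genes, compared groups alone, each library left out, a leukocyte covariate, libraries that go against their labels left out (for SKO libraries of low Wwox, chosen after seeing the data), and the replicate number as a block. Same-numbered libraries deviated together in 1 comparison, set 2 DKO BMT against SKO BMT (correlations 0.293, 0.291 and 0.381), a pairing seen in the data only.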

Additional observations from a re-analysis of the deposited data

Results flagged for a closer look

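In the groups with more than 3 libraries, control BM and DKO yBM of set 1, the 8 genes gave 16 checks for a library far from its group, of which chance flags about 1 in 20. One was met, for Ogn in set 1 control BM, where control BM 2 (125 TPM) stood below the other 3 (237 to 257 TPM). Its gap on the log2(TPM + 1) scale was 0.887 of the whole range, above Dixon's limit for 4 libraries. The same library had the highest Omd of set 1 (185 TPM). No difference between groups in the effect of a contrast was found for the 8 genes by the interaction test or by opposite directions in all libraries.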

How the results depend on the processing

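The count of called SLRP genes was recomputed in 20 comparisons. Shares of all genes called are given above for the main fit only. In set 1 DKO yBM against control BM the count of 1 became 0 with no filter (Bgn limma adjusted p = 0.0894), with median-ratio scaling (0.0592), without DKO libraries of high Wwox (0.436), without knockout libraries of high Trp53 (0.0556) and with the replicate block (0.209), and ran from 0 to 1 as each library was left out. The block changed no other call, and could not be run for set 2 against control BM, whose columns carry no matched number. A count of 0 became 1 in set 1 DKO BMT against control with the leukocyte covariate (Ogn), and in set 2 against control in SKO yBM with quantile normalization (Ogn, limma adjusted p = 0.036) and in DKO yBM with the compared groups alone, and became 4 in SKO yBM with the compared groups alone. It ran from 0 to 1 for DKO BMT and SKO tumor against control as each library was left out. With the leukocyte covariate, which in set 2 nearly repeats the split of control against knockout, it became 2 in SKO yBM and DKO tumor against control (Lum and Fmod) and 1 in the other 4 groups (Lum). The same covariate turned the log2 difference to control for Dcn to 1.39 in SKO yBM, 1.27 in DKO yBM, 1.15 in DKO BMT and 2.85 in DKO tumor. It turned Prelp to 6.74 in SKO yBM, 4.96 in DKO yBM, 3.46 in SKO BMT and 3.27 in DKO BMT, Fmod to 9.57 in DKO yBM and 9.56 in SKO tumor, and Bgn to 0.41 in DKO yBM. The cause was not tested. Of 541 alternative values for the 31 differences printed above, 508 kept direction and call, 9 gained a call, 13 lost it and 11 turned, all 11 with this covariate. Median-ratio scaling shifted the median log2 difference of all genes by -0.402 to 0.387 over the comparisons and quantile normalization by -0.362 to 0.331, beyond 0.1 in 13 and 8 of 20. The alternative without DKO libraries of high Wwox was not run for the set 2 DKO tumor comparisons and the interaction, since it leaves no library. Depth is unknown, so low levels such as those of Lum have no counting limit.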
